A study of Mus musculus with 32 samples.

Results

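The genes described here encode secreted growth factors, their receptors and the proteins that carry their signals: FGF, Wnt, TGF-β, activin, BMP, PDGF, VEGF and ephrin family members. They were taken by name, as every probe set (the group of short probes that reads 1 transcript) whose platform annotation gives a single gene symbol starting with Fgf, Wnt, Fzd, Sfrp, Tgfb, Acvr, Inhb, Pdgf, Vegf, Efna, Efnb, Epha or Ephb, or with Smad or Bmp followed by a letter or digit. Bmp4, Bmp7, Bmpr1a and Smad1 were left out by the same rule. This gave 93 genes read by 110 probe sets, 64 on array design a and 46 on design b, among 13057 probe sets and 6137 named genes in all. Because the choice is by name, it also holds Bmp1, a secreted protease, Bmp2k, a kinase, Fgfr1op2, a partner in a receptor fusion, and Tgfb1i1 and Tgfbi, which are named as genes induced by TGF-β.

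All samples are total RNA from UB/OC-1, a conditionally immortal cell line from the developing mouse organ of Corti, where the hair cells of hearing form. Such lines carry a temperature-sensitive immortalising gene. The cells were kept at 33 °C (day 0, labelled undifferentiated) or moved to 39 °C, labelled as differentiating, for the number of days given. Experiment A covers days 0 to 9, 11 and 14 (12 arrays per design) and experiment B days 0, 2, 4 and 9 (4 arrays per design). No other treatment or genotype is labelled, and all RNA is from 1 line. For the tests, the 16 arrays of a design were put into 4 phases. Day 0 had 2 arrays, the early phase 4 (day 1 through day 3), the middle phase 5 (day 4 through day 7) and the late phase 5 (day 8 onwards). Temperature and time away from day 0 change together in each comparison with day 0 and cannot be told apart. Days 0, 2, 4 and 9 were read in both experiments, and the labels do not say whether these are separate cultures. The other arrays of a phase are different days of A. Each p-value therefore rests on a spread pooled over the 4 phases, which mixes differences between days with those between experiments. The main fit did not include experiment.

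Values are array intensities on a linear scale, of which 22.9% on design a and 33% on design b are negative. A floor was therefore set for each design at 141 and 198, the 75th percentile of the size of its negative values, and anything lower was raised to it before log2 was taken. Between 44.3% and 50.8% of probe sets per array lay above the floor on design a and between 30.9% and 40.4% on design b. The noise level of an array, the same percentile of its own negative values, was 103 to 204 in experiment A and 68 to 159.75 in experiment B on design a, and 153 to 325 against 75 to 160 on design b. The ratio of 3′ to 5′ Gapdh probe signal, a measure of RNA integrity, was 0.994 to 1.67 in experiment A and 0.759 to 0.889 in B, except on day 6 of A (2.65 on design a and 2.56 on b). Of 6 otic and hair cell markers on the arrays, Myo6, Myo7a, Pax2 and Gata3 were above the floor on at least 8 arrays, whereas the sensory progenitor and hair cell regulators Sox2 and Atoh1 never were. Of 6 epithelial markers 1 (Krt18) reached that level, and Cdh1, Epcam, Krt19 and Cldn3 never passed the floor. It was reached by 4 of 7 mesenchymal, 4 of 5 skeletal and cardiac muscle, 3 of 5 macrophage and blood, 2 of 3 glia and melanocyte and 1 of 5 endothelial markers. Some markers moved with the phases. Late against day 0, Krt18 was lower (log2 change −2.64 ± 0.37), as were Vim (−1.65 ± 0.45) and Fn1 (−1.76 ± 0.36 and −1.68 ± 0.37 by its 2 tested probe sets), and Gata3 was higher (1.59 ± 0.46, limma, adjusted p = 0.000134, 0.0243, 0.00294, 0.00528 and 0.0311). The other tested probe sets of the epithelial, mesenchymal and otic lists were not called late. Their changes were 0.19 and −0.05 for Krt8, 0.58, 0.06 and 0.49 for Col1a1, 0.26 for Col3a1 and 0.11 for Twist1. In the otic list they were 0.32 and 0.03 for Myo6, 0.41 for Myo7a, and 0.48 and 0.04 for Pax2. The summed intensity of the epithelial list, with negative values as 0, ranged over arrays from 4442 to 5884 on day 0 and from 792 to 1442 late. For the mesenchymal list these ranges were 11827 to 13200 and 4203 to 6819, and for the otic list 710 to 1328 and 1724 to 2053. For the muscle list it was 6269 to 8813 on day 0 and 4663 to 8861 late, for the macrophage and blood list 1420 to 2240 and 1461 to 4013, for the glia and melanocyte list 761 to 1772 and 974 to 2756, and for the endothelial list 218 to 471 and 584 to 1062. Such a sum follows its brightest markers. The median of Krt18 alone was 4835.5 on day 0 and 896 late, and that of Vim 6275 and 1683. Of the 3 endothelial probe sets tested, 0 were called late. Differences between these sums were not tested. The part of other cell types, and of these shifts, in the results below was not tested. Bulk RNA also does not separate fewer cells of a type from less RNA per cell.

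FGFs and PDGFs bind receptor tyrosine kinases that signal through the MAP kinase pathway. Wnts bind Frizzled receptors, and secreted frizzled-related proteins bind Wnts outside the cell. TGF-βs, activins and BMPs bind pairs of serine/threonine kinase receptors that phosphorylate Smads. Ephrins and Eph receptors sit on facing cell membranes and signal in both directions, often at tissue boundaries. In the inner ear, FGFs act in otic induction and in the formation of pillar cells, Wnts in the growth of the sensory region and the orientation of hair cells, and BMPs in patterning the cochlear duct.

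In all, 7 genes differed from day 0 in at least 1 phase: Tgfb3, Pdgfa, Sfrp2, Efnb2, Fgfr1, Vegfd and Vegfa. Promoters of 4 of those that were higher are shown, and the promoter set used had none for Tgfb3 and Fgfr1. The 4 belong to genes called higher than day 0 in at least 1 phase, though not in the same ones. Sfrp2 and Pdgfa were called in every phase, Efnb2 in the middle and late, and Vegfd in the middle only. Their sequences are set beside the time courses as a description. RefSeq lists a second Pdgfa start, whose window held 1 GC box and 66.4% G and C. The start shown is the farther upstream. All are the 250 bases before the RefSeq transcription start (GRCm38.p6), written 5′ to 3′ on the gene's strand. Capitals mark a match on either strand to a TATA box (TATAAA), a GC box (GGGCGG) or a Smad element (CAGACA). A TCF/LEF core (CTTTGA) and a cyclic AMP response element (TGACGTCA) were also searched and did not match in these windows. No searched motifs overlapped in them.
Sfrp2, chr3:83766071-83766320, plus strand: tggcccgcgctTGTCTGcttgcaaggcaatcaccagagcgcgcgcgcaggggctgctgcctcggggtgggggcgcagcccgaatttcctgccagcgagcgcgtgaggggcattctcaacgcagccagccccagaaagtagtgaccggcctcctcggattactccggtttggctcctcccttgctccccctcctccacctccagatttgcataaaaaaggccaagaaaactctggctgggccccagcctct
Pdgfa, chr5:138994945-138995194, minus strand: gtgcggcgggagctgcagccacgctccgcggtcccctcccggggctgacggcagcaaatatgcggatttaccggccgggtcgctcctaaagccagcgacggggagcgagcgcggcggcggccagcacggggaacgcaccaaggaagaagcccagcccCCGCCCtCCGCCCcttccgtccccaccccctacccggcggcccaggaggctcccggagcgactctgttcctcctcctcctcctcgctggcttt
Efnb2, chr8:8661243-8661492, minus strand: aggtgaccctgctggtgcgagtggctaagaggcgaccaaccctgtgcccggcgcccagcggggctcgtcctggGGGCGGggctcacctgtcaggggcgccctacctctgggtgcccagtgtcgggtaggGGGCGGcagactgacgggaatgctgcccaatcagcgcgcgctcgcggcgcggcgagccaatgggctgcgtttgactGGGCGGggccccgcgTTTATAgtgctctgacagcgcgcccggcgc
Vegfd, chrX:164373272-164373521, plus strand: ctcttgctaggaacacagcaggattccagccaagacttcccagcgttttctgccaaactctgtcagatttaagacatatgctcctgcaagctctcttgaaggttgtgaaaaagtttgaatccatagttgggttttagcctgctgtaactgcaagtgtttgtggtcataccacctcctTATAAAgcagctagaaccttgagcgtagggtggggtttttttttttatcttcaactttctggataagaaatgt
The Sfrp2 window held 1 Smad element, the Pdgfa window 2 GC boxes, the Efnb2 window 3 GC boxes and 1 TATA box, and the Vegfd window 1 TATA box. A TATA box is found in 12.4% of the 32851 promoters of this length, a GC box in 32.7%, a Smad element in 17.1%, a TCF/LEF core in 13.8% and a cyclic AMP element in 1.55%. No single motif was present in all 4. The G and C content was 63.6%, 72.4%, 72.0% and 42.4% in the order printed, against a median of 52.4% over all promoters, so the Vegfd window stood apart from the other 3. A match is a description of the letters and says nothing about binding.

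Many members lay at the background on most arrays. Of 110 probe sets, 14 were above the floor on all 16 arrays, 50 on some and 46 on none. The 55 probe sets (48 genes) above the floor on at least 2 arrays were tested, among 7726 on both designs. The FGF ligands had 11 of 18 probe sets on which no array passed the floor, the Wnt ligands 7 of 14 and the activin receptors 5 of 7. Both TGF-β receptors on the arrays, Tgfbr1 and Tgfbr2, also never passed. In contrast none of the 7 ephrin probe sets was without signal. A probe set at the floor gives only an upper limit, so a silent gene and a weak probe look the same.

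**Figure D1:**
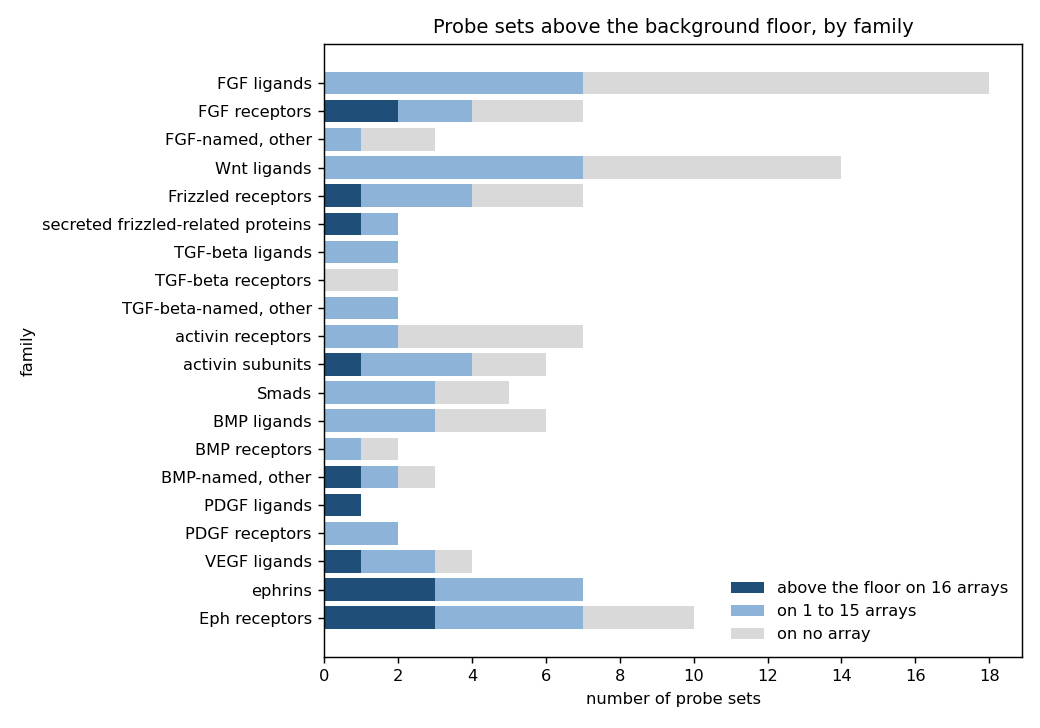
Number of probe sets (horizontal axis) in each family (vertical axis) above the background floor on all 16 arrays, on 1 to 15 arrays or on none. Ephrins have no probe set without signal, while FGF ligands have 11 of 18 and Wnt ligands 7 of 14.

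Early in the time course 3 of the 55 tested members were higher than at day 0 and 0 lower (limma, Benjamini-Hochberg adjusted p below 0.05), a share of 5.45%. At an unadjusted p under 0.05 there were 5 members, 1 of them lower. Over all probe sets tested, 3.49% were called, 1.45% higher and 2.05% lower. In the middle phase 5 members were higher and 1 lower (10.9%), against 8.19% of all probe sets, 3.61% higher and 4.58% lower. Late, 5 were higher and 1 lower (10.9%), against 10.9% of all, 4.84% higher and 6.08% lower. The share of members called was thus at the background late. The median log2 change of the tested members was 0.16 early, 0.13 in the middle and 0.29 late, beside 0.05, 0.08 and 0.11 over all probe sets. Experiments A and B differed in level in a way that repeated across days, and with experiment as a block the called probe sets numbered 469 of all tested in place of 270 early, 959 in place of 633 in the middle and 1117 in place of 844 late. The members called with the block were 3, 7 and 6. Where arrays of a called member are said below to lie apart from day 0, this describes the same values that gave the call. It adds no support to the call, and the share of all probe sets with such a separation was not counted.

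**Figure D2:**
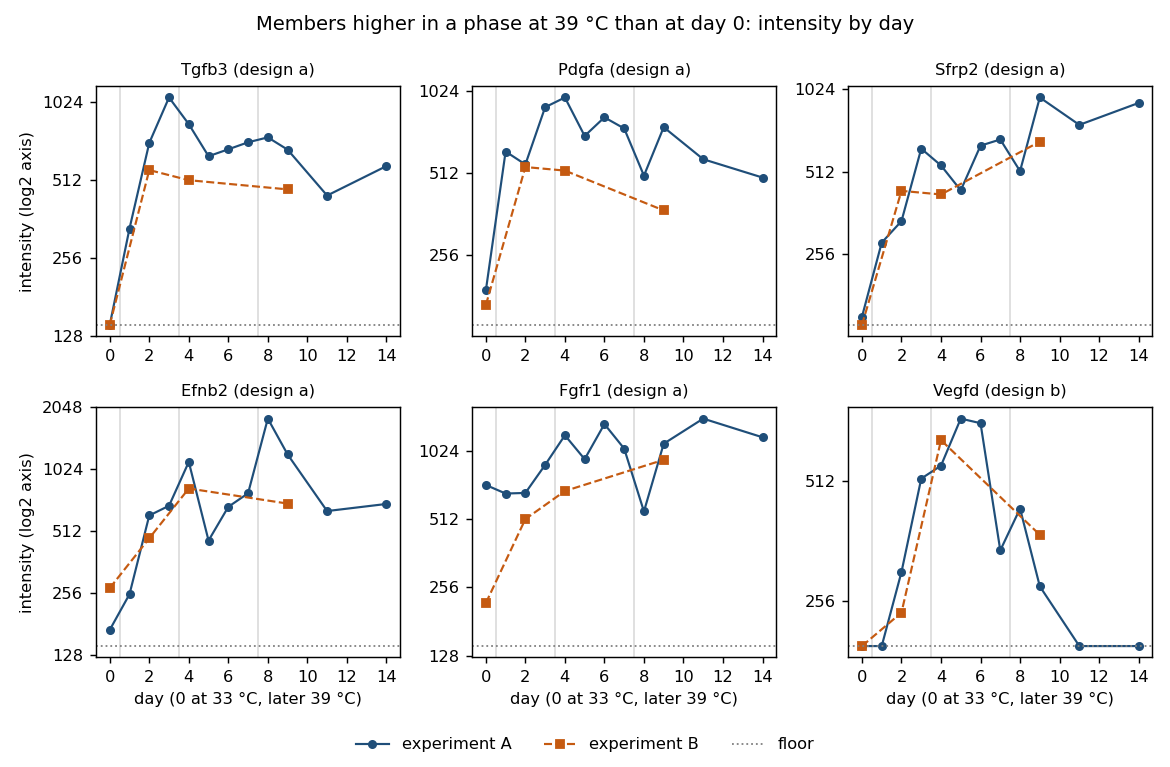
Intensity (vertical log2 axis, raised to the floor) by day (horizontal axis) for the 6 members that were higher than day 0 in at least 1 phase, with experiment A as circles and experiment B as squares. Each point is 1 array, the dotted line is the floor, and vertical lines separate the phases. Tgfb3, Pdgfa and Sfrp2 lie above both day 0 arrays on every later array, whereas for Fgfr1 the day 0 arrays of A and B stand apart at 722 and 218. The 6 were chosen by their change from day 0, so a separation from it is no further support.

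Tgfb3, the ligand TGF-β3, rose from background within the first days and stayed up. At day 0 it read 108 in experiment A and −3 in B, both under the floor of 141. The early arrays read 332, 710 and 1063 on days 1 to 3 of A and 558 on day 2 of B. In the middle phase they were 839, 631, 671 and 714 in A and 510 in B. Late values were 746, 669, 445 and 578 in A and 470 in B. All 14 later arrays were above both day 0 arrays, and the highest of them was day 3 of A. The level was at least 4.34-fold higher early (log2 change 2.12 ± 0.39 SE, adjusted p = 0.00361), at least 4.71-fold in the middle (2.24 ± 0.38, adjusted p = 0.000748) and at least 4.04-fold late (2.02 ± 0.38, adjusted p = 0.00143, limma). With the floor at the 90th percentile the early and late calls were lost (adjusted p = 0.0861 and 0.0583), and with experiment A alone the early one (0.0519). Because both day 0 arrays sit at the floor and so have no measured spread, these p-values can be too small.

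Elsewhere in the TGF-β family few members could be followed. Tgfb2, a second ligand, passed the floor only on day 4 of B, at 203. Tgfbr1 read between −135 and 16 and Tgfbr2 between −61 and 49 over the 16 arrays. Tgfbi, an extracellular matrix protein, was above 141 on 2 arrays, at 162 on day 2 and 277 on day 14 of A. Tgfb1i1, a focal adhesion adaptor, was above it on 4, reading 418, 144 and 642 on days 9, 11 and 14 of A and 170 on day 2 of B. Both passed the test for a change of any shape over days (limma F-test of a natural spline, adjusted p = 0.00189 and 0.0239). Without day 14 of A those values were 0.960 and 0.820, so each rests on that array.

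No activin or BMP ligand, activin receptor or BMP receptor chosen by the name rule was called between phases. Inhba, the activin βA subunit, was above the floor of 198 on all 16 arrays, at 199 to 737, and its log2 change was −0.56 ± 0.50 early, −0.36 ± 0.49 in the middle and −0.20 ± 0.49 late. Inhbb, the βB subunit, was above it on 3 arrays only, 227 on day 3 of A and 602 and 366 on days 2 and 4 of B. Inhbc had 3 probe sets, above the floor on 13, 7 and 0 arrays. Of the receptors, Acvrl1 (ALK1) passed on 8 arrays, Acvr2a on 1 by 1 probe set and never by the other, and Acvr1, Acvr1b and both probe sets of Acvr2b never. Bmp6 passed on 11 arrays, all in experiment A, where it read 180 to 474. In B it read 74 to 150, below the floor throughout. Bmp8a passed on 9 arrays and Bmp8b on 3, Bmp2 (2 probe sets) and Bmp5 never, and of the receptors Bmpr1b on 1 and Bmpr2 never. Bmp1, the protease, was tested by 2 probe sets and called by neither. Within A its late log2 change was 0.42 and 0.45, and between the single arrays of B −0.05 and 0.35. The mean log2 difference of B from A over the 4 shared days was 0.67 by the first and −1.54 by the second.

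Smads carry the signal to the nucleus. Smad4, the partner shared by all branches, was above the floor on 13 arrays by 1 probe set (84 to 402) and on 7 by another (−38 to 337). Smad2, which transmits TGF-β and activin signals, passed on 9, including all 4 of experiment B (228, 266, 224 and 158 on days 0, 2, 4 and 9). Smad3 and Smad5 never passed. Neither Smad2 nor Smad4 was called between phases. The late log2 change of Smad4 was 0.35 ± 0.43 by the first of these probe sets and 0.46 ± 0.29 by the second, and that of Smad2 −0.21 ± 0.26.

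Pdgfa, the PDGF-A chain, rose early and held a level near 4 times that of day 0 in the middle phase. Its day 0 arrays read 189 in A and 167 in B, beside noise levels of 188 and 91 on those arrays. Early values were 615, 551 and 896 in A and 539 in B. Middle values were 973, 702, 822 and 748 in A and 523 in B. Late values were 501, 756, 576 and 493 in A and 373 in B. No later array overlapped day 0. The change was 3.58-fold early (log2 change 1.84 ± 0.34 SE, adjusted p = 0.00387), 4.16-fold in the middle (2.06 ± 0.33, adjusted p = 0.000521) and 2.96-fold late (1.56 ± 0.33, adjusted p = 0.00388, limma). Without day 0 of B the early and late calls were lost (adjusted p = 0.0542 and 0.0560), and the late one with the higher floor (0.0543). Of its receptors, Pdgfra passed the floor only on day 6 of A, at 161. Pdgfrb read 29 to 469 and passed on 9 arrays (late log2 change 0.37 ± 0.29, adjusted p = 0.490).

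VEGF ligands, which act mainly on endothelial cells, moved in different ways. Vegfd was under its floor of 198 on both day 0 arrays, at −22 in A and 13 in B. Early it read 23, 303 and 518 in A and 240 in B, and in the middle phase 558, 731, 712 and 343 in A and 646 in B. Late values were spread, at 436, 279, −34 and 128 in A and 375 in B. Every middle array was above both day 0 arrays, and the early and late phases each held arrays at the floor. Both day 0 arrays sit at the floor and have no measured spread, so the p-values that follow can be too small. The middle level was at least 2.92-fold that of day 0 (log2 change 1.54 ± 0.43 SE, adjusted p = 0.0313), the early and late ones were not called (adjusted p = 0.759 and 0.537), and the change over days passed (adjusted p = 0.00664, limma). The middle call was lost in 8 of 28 alternatives, among them experiment A alone (adjusted p = 0.217) and leaving out day 0 of either experiment (0.144 and 0.189).

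Vegfa was the only member called lower. It read 187 and 252 on the day 0 arrays of A and B, 221 on day 1 and 142 on day 4 of A, and at most 122 on the other 12, under the floor of 141. The noise level of the day 0 array of A was 188. Early, 1 array lay between the day 0 arrays. The middle level was 1.54-fold lower as a low estimate, since 4 of 5 arrays were at the floor (log2 change −0.62 ± 0.16 SE, adjusted p = 0.0213). Late it was at least 1.54-fold lower, with 5 of 5 at the floor (−0.62 ± 0.16, adjusted p = 0.0173, limma). Arrays at the floor have no measured spread, so these p-values can be too small. Without the filter on low values the middle call was lost (limma, adjusted p = 0.0570). The calls ended with the lower floor (adjusted p = 0.208 middle and 0.0756 late), on the arcsinh scale (0.24 and 0.123), with A alone (0.331 and 0.300) and without day 0 of B (0.337 and 0.309). Vegfb was above the floor on every array, at 589 to 1312 in A and 325 to 647 in B, and its late log2 change was 0.75 ± 0.44 (adjusted p = 0.338). Vegfc never passed the floor.

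Sfrp2, a secreted Wnt-binding protein, was higher than at day 0 in all 3 phases. Its day 0 arrays read 151 in A and 85 in B, below noise levels of 188 and 91 on those arrays. Early values were 282, 338 and 622 in A and 436 in B, middle values 540, 438, 638 and 672 in A and 423 in B, and late values 515, 957, 760 and 914 in A and 660 in B. All 14 later arrays were above both of day 0, and the 3 highest were days 9, 11 and 14 of A. As 1 of the day 0 arrays was at the floor, the folds are low estimates: 2.75 early (log2 change 1.46 ± 0.37 SE, adjusted p = 0.0294), 3.65 in the middle (1.87 ± 0.35, adjusted p = 0.00197) and 5.09 late (2.35 ± 0.35, adjusted p = 0.000228, limma). Within experiment A the late change was 2.34 and between the single arrays of B 2.23. The late call held in all 28 alternatives. The early one was lost in 8, with adjusted p up to 0.539 under the higher floor, and the middle one with the higher floor (0.0711).

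Sfrp1, its relative, was above the floor on all 16 arrays, at 463 and 706 on day 0, 474, 489, 631 and 1177 early, 378, 411, 386, 406 and 442 in the middle, and 227, 351, 563, 839 and 432 late. The early and late arrays overlapped day 0, and the middle arrays lay below it. How often the arrays of other probe sets separate in this way was not counted, so this is a description only. The change was not called in the middle (log2 change −0.50 ± 0.43, adjusted p = 0.612, with 8.19% of all probe sets called) or late (−0.38 ± 0.43, adjusted p = 0.652). The difference in change between Sfrp1 and Sfrp2 was not tested. The change over days passed for Sfrp1 only with experiment as a block (adjusted p = 0.0430).

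Of the Frizzled receptors, Fzd8 had 1 probe set above the floor on every array (738 to 1149 in A and 227, 513, 655 and 538 in B) and a second that never passed. Its log2 change was 0.91 ± 0.45 early, 1.06 ± 0.44 in the middle and 0.97 ± 0.44 late, none of them called (adjusted p = 0.419, 0.165 and 0.191). Without day 0 of A, which leaves 1 day 0 array, the changes were 1.93 in the middle and 1.84 late. Within A the middle and late changes were 0.29 and 0.25, and between the single arrays of B 1.53 and 1.24. On day 0 the log2 difference of B from A was −1.74, so the larger values rest on the day 0 array of B. Fzd7 passed the floor on 12 arrays (late log2 change 0.54 ± 0.50), Fzd9 on 7, Fzd6 on 1 and Fzd3 and Fzd4 never.

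No Wnt ligand was above the floor on all arrays. The 5 tested were Wnt3 (above the floor on 12 arrays), Wnt1 (11), Wnt7b (8), Wnt10a (7) and Wnt11 (2). Their highest single values were 308, 568, 239, 318 and 389. None was called between phases, and Wnt10a passed over days (adjusted p = 0.0482), lost in 17 alternatives, with 0.585 without day 14 of A, its highest array. Wnt7a and Wnt10b passed the floor on 1 array each, both on day 9 of B, at 206 and 150. Wnt3a, Wnt4, Wnt5a, Wnt5b, Wnt6 and Wnt8a never did.

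Fgfr1 and 1 of 4 probe sets of Fgfr2, receptors that bind many FGFs, were above the floor on all 16 arrays, and no FGF ligand was. Probes differ in brightness, so this does not rank the genes by level. Fgfr1 read 722 on day 0 of A and 218 on day 0 of B. Early values were 662, 666 and 885 in A and 511 in B, middle values 1195, 938, 1339 and 1044 in A and 679 in B, and late values 552, 1097, 1415 and 1171 in A and 932 in B. The day 0 array of A lay inside the range of every later phase. Late it was 2.49-fold higher (log2 change 1.31 ± 0.42 SE, adjusted p = 0.0496, limma), and in the middle the change was 1.35 ± 0.42 (adjusted p = 0.0530, or 0.0391 with experiment as a block). The late call was lost in 20 of 28 alternatives. Without day 0 of B the late change was 0.45 (adjusted p = 0.822), within A 0.47 (0.698) and between the arrays of B 2.10, so the call rests on that 1 array.

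Fgfr2 had 4 probe sets that gave different pictures. The one above the floor on every array read 936 to 3177 in A and 335, 407, 437 and 913 on days 0, 2, 4 and 9 of B, with a late log2 change of 1.16 ± 0.62 (adjusted p = 0.291). A second passed the floor on 13 arrays (15 to 1214), and the other 2 on none. For the first of these, the change over days passed with experiment as a block (adjusted p = 0.0479). Fgfr4 passed the floor on 3 arrays, and Fgfr3, which marks supporting cells of the organ of Corti, read −107 to 13 and never passed.

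Among the FGF ligands Fgf15, which is made in the embryonic brain, passed the floor on 14 arrays. It read 696 on day 0 of A and 287 of B, 752, 1043, 392 and 230 early, 561, 1184, 506, 524 and 150 in the middle, and −42, 476, 809, 1532 and 122 late, B last in each. Within the late phase it spanned the floor and its own highest value, and no comparison was called (late log2 change −0.12 ± 0.85). Fgf4 passed the floor on 13 arrays by 1 probe set and 4 by another, Fgf1 on 8, Fgf13 on 7 and Fgf11 on 5 and 6. Fgf2, Fgf3, Fgf5, Fgf6, Fgf7, Fgf8, Fgf9, Fgf10, Fgf12 and Fgf14, and the binding protein Fgfbp1, never did.

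**Figure D3:**
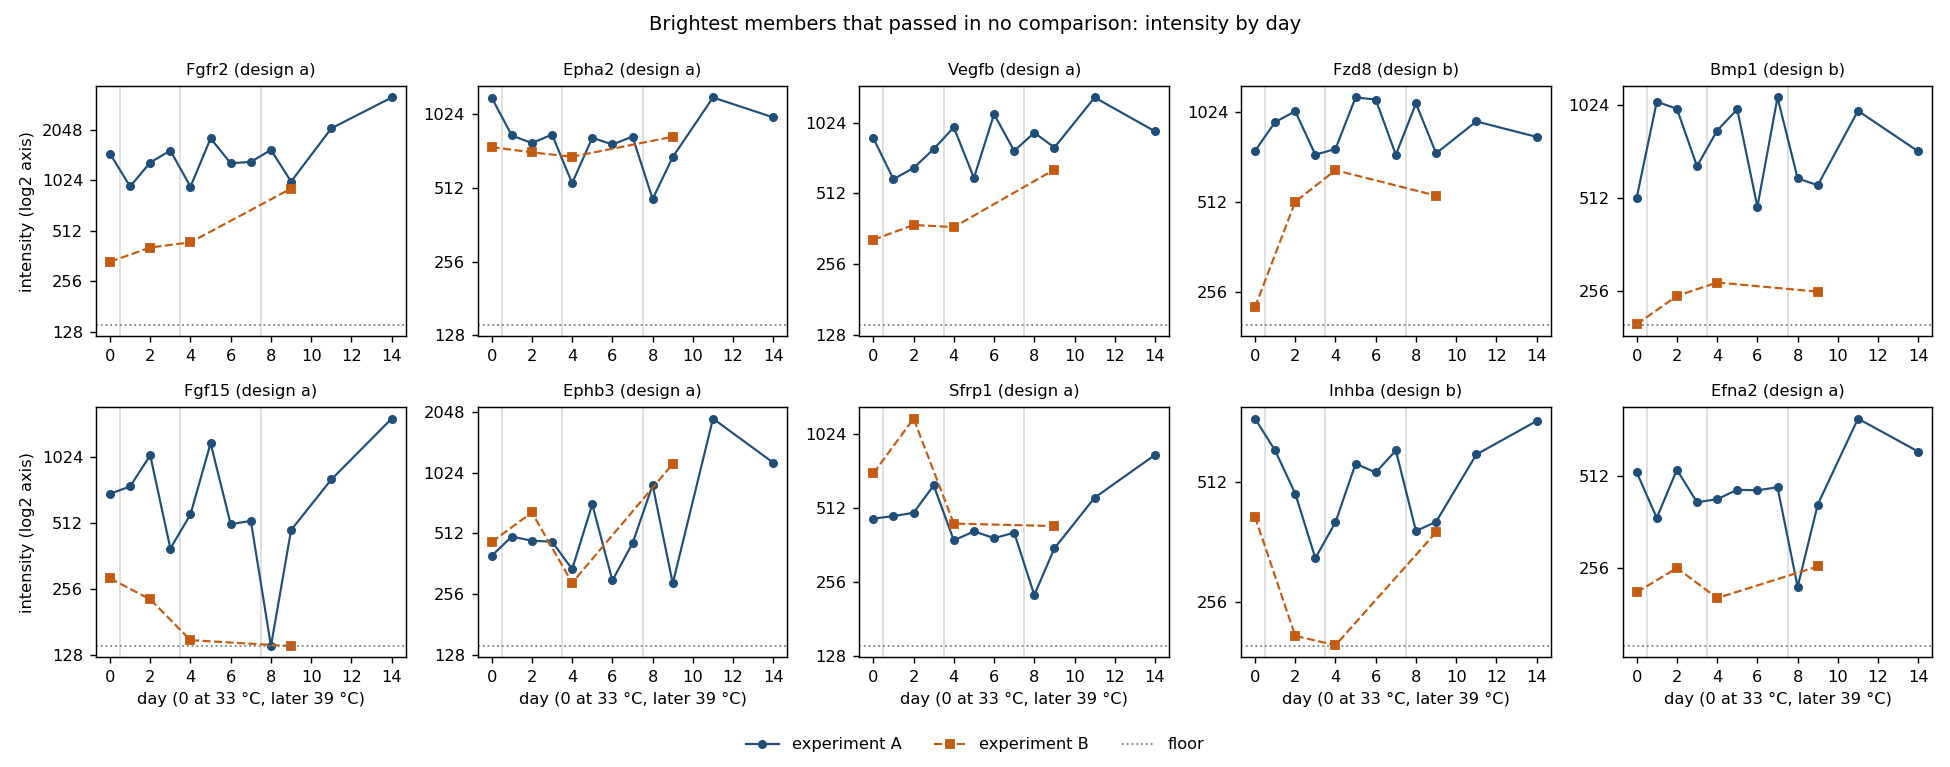
Intensity (vertical log2 axis, raised to the floor) by day (horizontal axis) for the 10 probe sets of highest median intensity among members called in no comparison, with experiment A as circles, experiment B as squares and the floor dotted. Each point is 1 array. The gap between experiments is wide for Fgfr2 (936 to 3177 in A, 335 to 913 in B) and narrow for Epha2 (461 to 1198 in A, 686 to 828 in B).

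Efnb2, the transmembrane ligand ephrin-B2, was higher than at day 0 in the middle and late phases. On day 0 it read 169 in A and 270 in B. The reading of A was below the noise level of its own array, 188. Early values were 252, 609 and 679 in A and 472 in B. Middle values were 1110, 460, 671 and 781 in A and 824 in B, and late values 1803, 1207, 640 and 693 in A and 696 in B. The early phase overlapped day 0 through day 1 of A, whereas the middle and late phases did not. The middle level was 3.46-fold that of day 0 (log2 change 1.79 ± 0.45 SE, adjusted p = 0.0173) and the late level 4.32-fold (2.11 ± 0.45, adjusted p = 0.00438, limma), while the early change of 1.14 ± 0.47 was not called (adjusted p = 0.258). Within A the late change was 2.55 and between the arrays of B 1.37. Without day 0 of A the middle and late calls were lost (adjusted p = 0.175 and 0.0713), and the middle one with A alone (0.0891).

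Other ephrins were measurable and not called. Efna1 and Efna2, which are held in the membrane by a lipid anchor, were above the floor on all 16 arrays, at 194 to 615 and 203 to 793, with late log2 changes of 0.68 ± 0.38 and 0.29 ± 0.51. Efnb3 passed on 14 arrays, Efna4 on 13 by design b and 7 by design a, and Efnb1 on 8.

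Of 10 Eph receptor probe sets, 3 passed the floor on all 16 arrays, 3 on none and the others on some. Epha2, a receptor for ephrin-A ligands, read 461 to 1198 over the 16 arrays and its log2 change was −0.26 ± 0.34 early, −0.40 ± 0.33 in the middle and −0.26 ± 0.33 late. Ephb3, a receptor for ephrin-B ligands, read 396 and 464 on day 0, and late it read 891, 289, 1907 and 1150 in A and 1135 in B. Of the late arrays, day 9 of A alone lay below day 0. The late change was 1.09 ± 0.51 (adjusted p = 0.212), or adjusted p = 0.0186 without that array. Ephb6, a receptor without kinase activity, was at the floor on day 0 (21 and −51) and read 330, 470, 428 and 486 in A and 223 in B in the middle phase. Its middle level was at least 2.64-fold higher with an adjusted p of 0.0688, which passed in 6 of 28 alternatives. Epha8 passed the floor on all 16 arrays and Epha4 on 7, Epha1 and Epha6 on 1 each, and Epha3, Epha5 and Epha7 never.

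**Figure D4:**
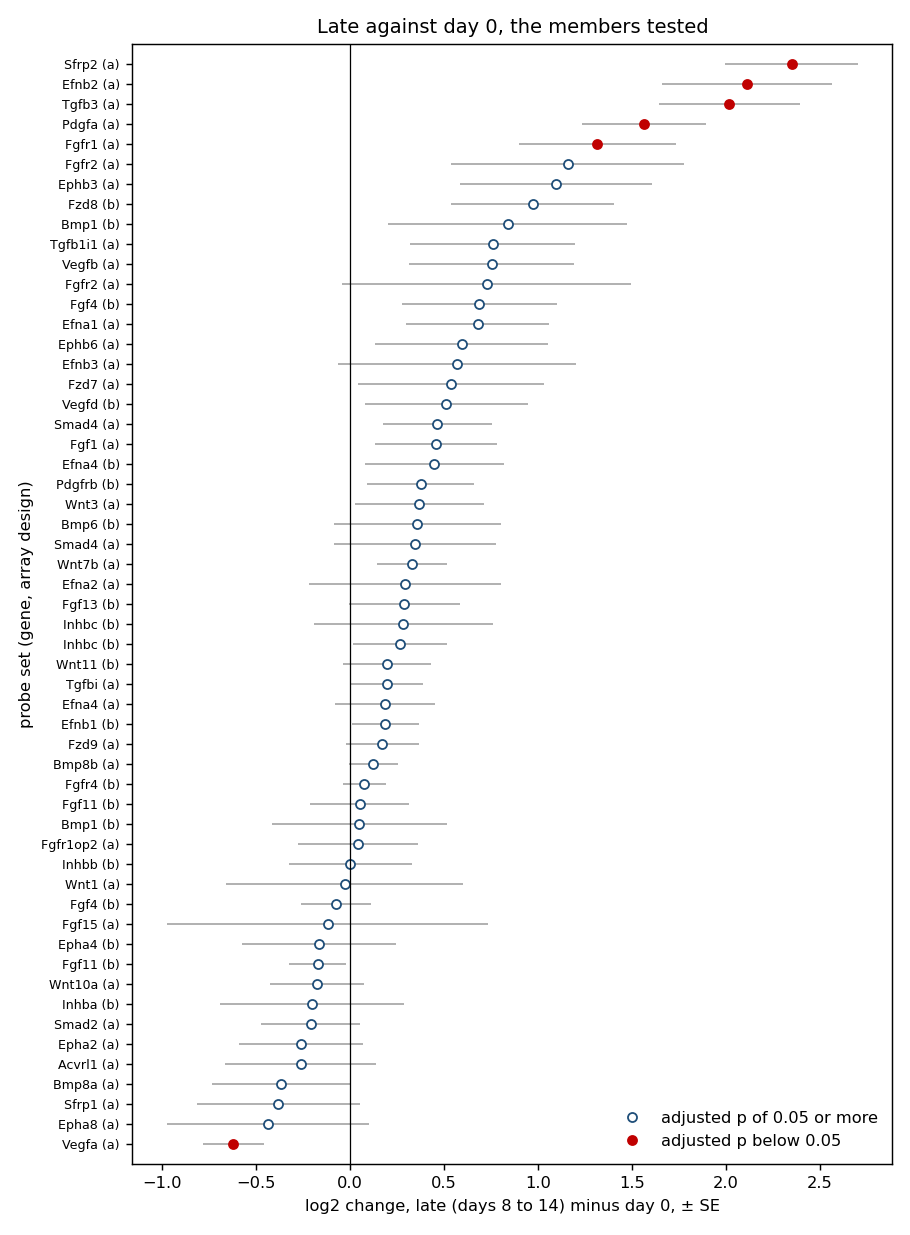
Log2 change from day 0 to the late phase (horizontal axis, bars ± SE) for each of the 55 tested probe sets (vertical axis, with array design). Filled points passed an adjusted p of 0.05: Sfrp2, Efnb2, Tgfb3, Pdgfa and Fgfr1 above 0 and Vegfa below it, and the other 49 are open.

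Late and early arrays were all at 39 °C, so their comparison leaves temperature and day 0 out. Of the members 0 were called (limma; 2 had an unadjusted p under 0.05), and 0.984% of all probe sets were. No member was called in the 28 alternatives either. The lowest adjusted p was 0.184, for Sfrp2, at 0.89 ± 0.28. For Efnb2 the change was 0.97 ± 0.36, for Pdgfa −0.28 ± 0.26 and for Tgfb3 −0.10 ± 0.30. The spline test over days called 9 members (16.4%) against 9.73% of all probe sets: Sfrp2 (adjusted p = 0.000283), Tgfb3 (0.000861), Tgfbi, Efnb2 (0.0055), Vegfd, Vegfa (0.00691), Pdgfa (0.00755), Tgfb1i1 and Wnt10a. The Pdgfa call was lost with a spline of 2 degrees of freedom (adjusted p = 0.0526) and without day 0 of A (0.0846) or of B (0.115), and that of Efnb2 without day 0 of A (0.0604). Vegfa lost it in 4 alternatives, with adjusted p up to 0.212 on the arcsinh scale, and Vegfd with the higher floor (0.117). With experiment as a block the spline test called 11 members, and 1241 in place of 752 of all probe sets. Without day 14 of A it called 6 members, and 676 of all probe sets.

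The 2 experiments could be compared on days 0, 2, 4 and 9. The mean log2 difference of B from A had a median of −0.21 over the tested members and −0.05 over all tested probe sets. B was lower on all 4 days for 13 of the 55 and higher on all 4 for 3. Over all 7726 probe sets these counts were 1363 and 1203. The noise level was also lower in B, and its part in the difference was not tested. Among the late arrays, day 11 of A was the highest for 14 and day 14 for 10 of the 34 tested members of design a with a single highest array. The noise levels of those arrays, 204 and 197, were the highest on that design, and their part was not tested either.

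Genes outside the name rule were read from lists of each pathway. In the TGF-β and BMP list, 30 probe sets were tested: 1 was higher and 1 lower early, 6 and 1 in the middle, and 6 and 2 late. These are 6.67%, 23.3% and 26.7% of the list, beside 3.49%, 8.19% and 10.9% of all probe sets. The list was chosen with results of these data known, so the share is a description only. Smad1, which transmits BMP signals, was higher in all 3 phases (late log2 change 1.73 ± 0.38, adjusted p = 0.00559), and Bmp4 in the middle and late (2.11 ± 0.29, adjusted p = 0.000127). Late, Id2 (2.45 ± 0.39) and Id4 (1.34 ± 0.35), which are common BMP targets, were higher. Id1 and Id3, such targets that are also in the list, were not among those called. Also higher late were Ltbp3 (1.77 ± 0.35), which binds latent TGF-β, and Dcn, a matrix proteoglycan that binds TGF-β. For Dcn both day 0 arrays were at the floor, so its log2 change of 6.18 ± 0.89 is a lower bound. Nbl1, a BMP antagonist, was called higher in the middle phase (1.93 ± 0.49, a low estimate with 1 day 0 array at the floor). Ccn2, a usual TGF-β target, was lower in all 3 phases (late −2.20 ± 0.47, a low estimate with 1 of 5 late arrays at the floor). Fst, which binds activin, was lower late (−1.43 ± 0.37). Whether any of these changes is linked to TGF-β or BMP signalling was not tested.

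In the Wnt list 20 probe sets were tested. Early 0 were higher (0 at an unadjusted p under 0.05) and 1 lower, and in both later phases 1 was higher and 2 lower, which is 5% of the list early and 15% in each later phase, beside 3.49%, 8.19% and 10.9% of all probe sets. Myc, a target of Wnt and many other signals, was lower in all 3 phases (late −1.27 ± 0.23, adjusted p = 0.00116, a low estimate with 3 of 5 late arrays at the floor), Ccn1 in the middle and late (late −1.67 ± 0.52), and Ctnna1, the cadherin-bound α-catenin, was higher in the middle and late (late 0.86 ± 0.23). Of 28 probe sets in the receptor tyrosine kinase and MAP kinase list, 1 was higher in the middle and 2 late (3.57% and 7.14%, below the 8.19% and 10.9% of all probe sets), namely the adaptor Gab1 (late 2.41 ± 0.41, adjusted p = 0.000738, a low estimate with 1 day 0 array at the floor) and the FGF co-receptor Sdc4 (late 1.23 ± 0.33). Of 13 in the Eph and ephrin list, 0 were called in any phase and 0 had an unadjusted p under 0.05 (limma). The median late change was 0.17, 0.14, 0.27 and −0.14 in the Wnt, TGF-β and BMP, kinase and Eph lists, beside 0.11 over all probe sets. Late against early, Bmp4 and Dcn were higher and Fst lower.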

How the data were processed

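Total RNA was hybridised to 2 oligonucleotide array designs, with 1 array per design for each of 16 combinations of experiment and day, and 1 value table per design was used. The deposited values are intensities, whole numbers on a linear scale that the authors had scaled (trimmed means per array, dropping 2% at either end, of 300.4 to 300.8). The software used, and how background was removed, were not given in the sources used here. Of the columns of values, 0 were left unused.

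The values were kept as deposited. Control rows (61 per design) were left out, values were raised to the floor, and log2 was taken. Probe sets that passed the floor on 2 arrays or more (4294 on design a and 3432 on b) were fitted per design with limma 3.58.1 in R 4.3.3 (eBayes with trend and robust), as 4 phases with 12 residual degrees of freedom or with day as a natural spline of 3 degrees of freedom. Tests were 2-sided, with Benjamini-Hochberg adjustment over both designs and a threshold of 0.05. A fold is "at least" where the dimmer group lay wholly at the floor and a low estimate where some were. The scripts were tested on simulated data, with late changes planted only in bright probe sets and no difference between experiments. That test does not cover calls near the floor.

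The members and lists were chosen with earlier results of these data known. Named genes were all members called anywhere, the 10 others of highest median intensity, a list set by role, and pathway genes that were called. Where a gene had several probe sets, all were given. Symbols came from the platform annotation, 7561 of 13057 probe sets having 1 symbol. Promoters came from a set of RefSeq promoters (GRCm38.p6). The set used held 72 of the 93 member genes and 5 of the 7 called, and lacked Tgfb3 and Fgfr1. The differences between experiments A and B on the 4 shared days correlated between days (r = 0.33 to 0.70 over 6 pairs of days), so experiment paired the samples, and it was fitted as a block in an alternative. Other floors, filters, scales, phase limits and leaving out each day of each experiment were also tried.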

Additional observations from a re-analysis of the deposited data

Results flagged for a closer look

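Single arrays stood apart from the rest of their phase in 13 of 90 groups of 4 or 5 arrays (Dixon's test on values raised to the floor). Chance flags about 1 group in 20 where all values are measured, and that rate does not hold at the floor. In 9 of the 13 all other arrays of the phase were at the floor, so that any 1 array above it was flagged, in 3 some were, and in 1 (Efna2) none. On days 2 and 4 of experiment B there were 6: Inhbb at 602 early (nearest 227) and 366 in the middle (nearest 40), Smad2 at 266 early (nearest 125), Tgfb1i1 at 170 early (nearest −2), Smad4 at 208 in the middle by the probe set above the floor on 7 arrays (nearest 153), and Efna2, low at 203 on day 4 (nearest 430). In experiment A, Tgfbi stood apart at 162 on day 2 and at 277 on day 14, Vegfa at 221 on day 1 and 142 on day 4, Wnt10a at 169 on day 3 and 186 on day 4, and Pdgfrb at 325 on day 6.

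Inhbb was also the single member flagged by a test of the difference in change between experiments (limma interaction). The early change from day 0 was −1.54 on the log2 scale in A minus B, and the late against early change was 1.54. Experiment B had 1 array per phase, and in A Inhbb was above the floor on day 3 only. That test therefore had almost no measured spread and cannot show that the experiments differ. Each rests on 1 early array of B, and most other arrays of Inhbb were at the floor.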

How the results depend on the processing

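Of the early calls (3), 1 was left with the higher floor (90th percentile), with experiment A alone and without day 0 of experiment B. In the middle phase (6), 3 were left with the higher floor and with A alone. Late (6), 2 were left with the higher floor and 3 without day 0 of B. The time course (9) kept 5 when 8 arrays above the floor were required. Leaving out each day of each experiment in turn gave 1 to 4 members early, 4 to 8 in the middle, 3 to 6 late, 0 late against early and 6 to 9 over days. No named member that was called changed sign under any alternative. With experiment as a replicate block the counts were 3, 7, 6, 0 and 11, the added calls being Fgfr1 in the middle and Fgfr2 and Sfrp1 over days, and no other call of a named member changed. Late against early, the block called 184 of all probe sets in place of 76. With a covariate for array noise, chosen after seeing the data, they were 3, 8, 6, 0 and 11. Over all probe sets, the early count of 270 became 175 on the arcsinh scale and 451 with that covariate. A alone gave 173, 455 and 555 in the early, middle and late phases, and leaving out day 0 of B gave 126, 321 and 402, with 466 over days in place of 752. Leaving out day 3 of A gave 172 early. The late against early count of 76 became 40 without the filter on low values, 31 with A alone, 140 with day 3 counted as middle and 166 with the covariate, and lay between 30 and 118 with 1 such day left out. With 2 arrays at day 0, each comparison with it depends on both. Signal over background limits the 46 probe sets never above the floor, whose changes could not be measured.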
